A study of Homo sapiens with 6 samples.

Results

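The transcripts of 6 metalloproteinase genes, MMP8, MMP10, MMP19, MMP25, ADAMTS4 and ADAM32, were followed in ES2, a human ovarian cancer cell line. The genes were taken by symbol from the deposited expression tables and make up 6 of 771 entries with a gene symbol (1113 entries in all). The first group of 3 libraries came from ES2 cells labelled as RUNX1-IT1 knockdown and given an ASO (antisense oligonucleotide) against RUNX1-IT1, a long non-coding RNA from within the RUNX1 gene. The other 3 libraries came from ES2 cells given a control ASO. Both groups share the same line, the same medium with fetal bovine serum and the same mRNA-focused library kit, and the labels do not say whether replicates 1 to 3 were separate cultures. Any p-value thus reflects the spread of these libraries alone, which may be technical. The level of RUNX1-IT1 is not analysed here, and with 2 of 12 epithelial and ovarian tumour markers in the tables, PAX8 and ESR1, the cell type could not be checked further.

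Matrix metalloproteinases (MMPs), ADAMs and ADAMTS proteases belong to the metzincins, enzymes that hold a zinc ion in the catalytic site and are made as inactive precursors. Secreted MMPs cut collagens, proteoglycans and other MMPs, ADAMTS enzymes cut proteoglycans such as aggrecan, and ADAMs are membrane proteins, several of which shed the outer parts of other membrane proteins. In carcinomas MMPs are known for matrix breakdown during invasion, and transcription of several of their genes is driven by AP-1, a dimer of FOS and JUN family proteins. ADAM32 is no matrix-cleaving enzyme by its known role: it is known mainly from testis and is regarded as lacking a working catalytic site, so it is described here as a member by symbol only.

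All values below are CPM as deposited, reads of a gene per 1000000 reads of the library. The tables hold a selected part of each library: the listed entries summed to 3628 to 3894 CPM in RUNX1-IT1 ASO libraries and 10176 to 11070 CPM in control ASO libraries. Every entry differs between these same groups by at least 1.99-fold, so a gene's presence in the tables already implies a difference, and neither its direction nor its p-value is independent evidence. Evenly spaced low values put the libraries at 17100000 to 18700000 reads for the RUNX1-IT1 ASO and 17300000 to 21200000 reads for the control ASO. Fewer cells expressing a gene and less RNA per cell cannot be told apart in these bulk samples.

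For all 6 genes the highest RUNX1-IT1 ASO library lay below the lowest control ASO library, which held for 95.7% of the 771 named entries. The differences were unequal. MMP10 was 7.13-fold lower, MMP8 5.13-fold and MMP19 3.11-fold, while ADAM32, MMP25 and ADAMTS4 were 2.48-fold, 2.39-fold and 2.29-fold lower. The median fold over all named entries was 3.24. By their folds of mean CPM, MMP10 and MMP8 lay above it and the other 4 genes below it. For MMP8 and MMP19 the side is not settled. Their exact counting intervals by summed reads, 2.58-fold to 11.2-fold and 2.66-fold to 3.72-fold, both include 3.24. Such intervals cover counting error only.

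**Figure D1:**
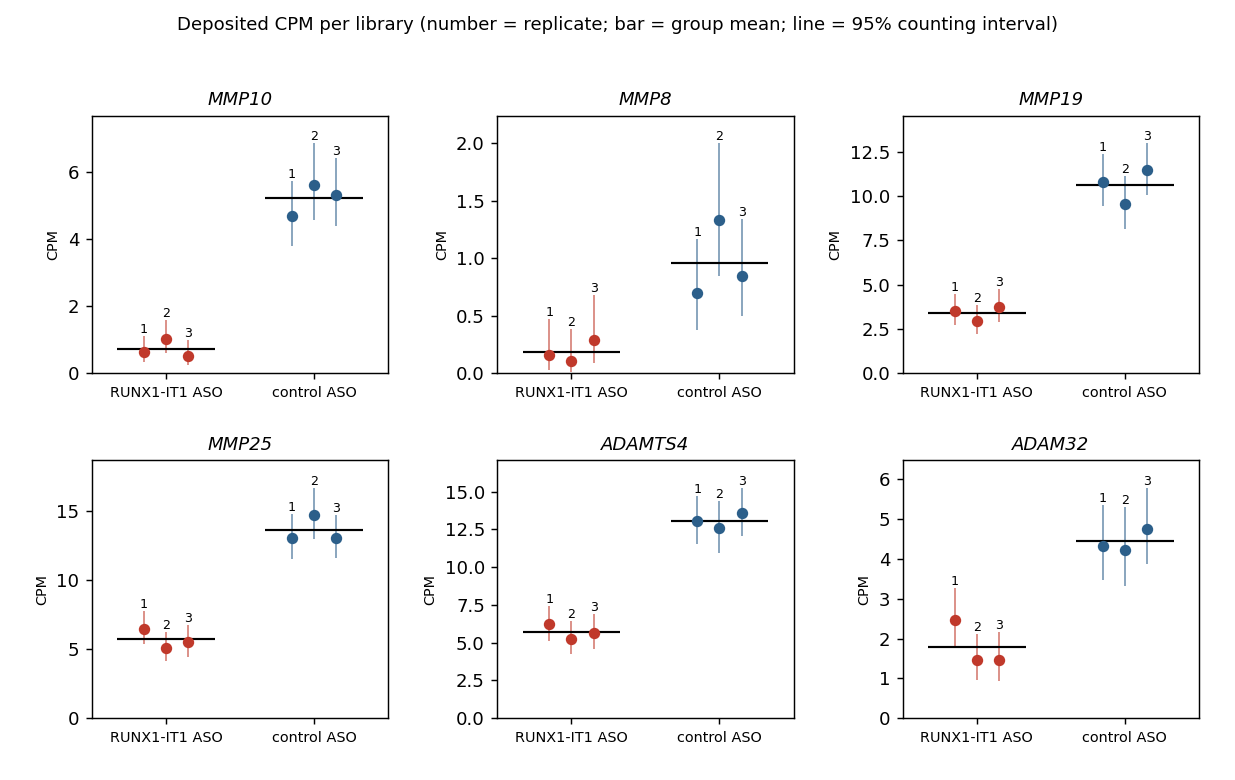
Deposited CPM of each gene (y axis, starting at 0) in the 3 RUNX1-IT1 ASO libraries and the 3 control ASO libraries. Points are libraries numbered by replicate, horizontal bars are group means and vertical lines are 95% exact Poisson intervals, which cover counting error only. In each of the 6 panels the highest RUNX1-IT1 ASO point lies below the lowest control ASO point.

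MMP10 encodes stromelysin-2, a secreted enzyme that cuts proteoglycans, fibronectin and several collagens and can activate other MMP precursors. It stood at 0.642, 1.02 and 0.527 CPM in RUNX1-IT1 ASO libraries 1 to 3, against 4.68, 5.62 and 5.33 CPM in control ASO libraries 1 to 3. These values correspond to 12, 19 and 9 reads under the RUNX1-IT1 ASO and 94, 97 and 113 reads under the control ASO. Replicate 2 was the highest library in each group, and the lowest control library was still 4.58-fold above the highest knockdown library. The means were 0.730 ± 0.259 CPM for the RUNX1-IT1 ASO and 5.21 ± 0.478 CPM for the control ASO (SD, n = 3 each). On the log2(CPM + 1) scale, which understates changes of low genes, MMP10 fell by 1.85 ± 0.14 (SE; limma, Benjamini-Hochberg adjusted p = 4.8e-08), the 45th largest fall of 489 genes tested.

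MMP8 encodes neutrophil collagenase, a secreted enzyme that cuts fibrillar collagens and is known mainly from neutrophil granules. It stood at 0.160, 0.108 and 0.293 CPM in RUNX1-IT1 ASO libraries 1 to 3, against 0.698, 1.33 and 0.848 CPM in control ASO libraries 1 to 3. The RUNX1-IT1 ASO values are worth only 3, 2 and 5 reads, at or near the floor of 3 reads, and the control ASO values 14, 23 and 18 reads. Its mean over the 6 libraries, 0.573 CPM, was under the minimum of 1 CPM for the test, so it has no p-value in the main comparison. Summed reads were 10 under the RUNX1-IT1 ASO and 55 under the control ASO, 5.11-fold lower per read sequenced, with a 95% exact counting interval of 2.58-fold to 11.2-fold. That interval covers counting error only, and replicates differed by more than counting noise over the listed genes, so the size of the MMP8 difference is less certain than the interval.

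MMP8 and MMP10 are neighbours. In GENCODE release 29 on GRCh38, MMP8 lies on the reverse strand of chromosome 11 from 102711795 to 102727050 and MMP10 on the same strand from 102770503 to 102780628, with annotated starts 53.6 kb apart. They belong to a cluster of 9 MMP genes spread over 435 kb, and the other 7, MMP7, MMP20, MMP27, MMP1, MMP3, MMP12 and MMP13, are not in the tables used here. The only other listed gene within 500 kb is BIRC3, an inhibitor of apoptosis, whose start lies 463 kb from that of MMP10. BIRC3 stood at 20.9 ± 1.31 CPM under the RUNX1-IT1 ASO and 80.5 ± 2.61 CPM under the control ASO (SD, n = 3 each).

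**Figure D2:**
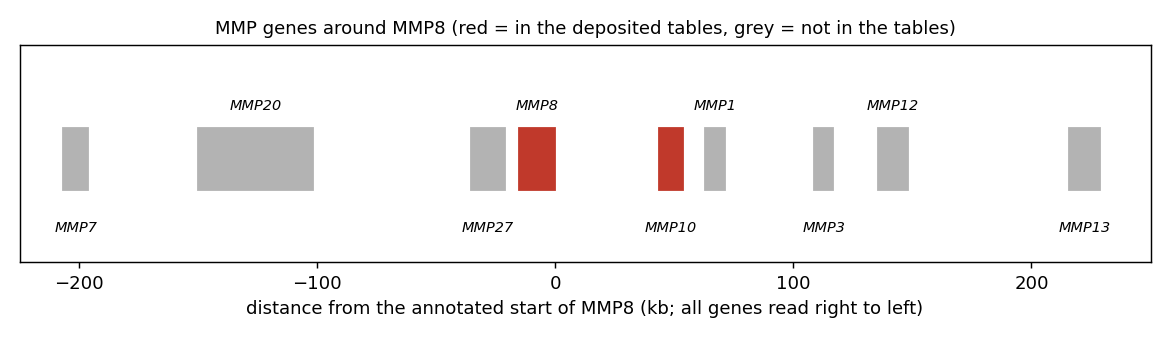
Map of the MMP genes around MMP8, drawn to scale, with the distance in kb from the annotated start of MMP8 on the x axis. Bars are gene spans, red for the 2 genes in the deposited tables and grey for the 7 that are not in them.

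The RefSeq promoter windows of these neighbours, the 2 of the 6 genes found in the promoter table, are shown because both genes were lower and because AP-1 sites are a textbook feature of MMP promoters. Each window runs from 250 bases before to 50 bases after the RefSeq start, 5′ to 3′ on the reverse strand of GRCh38.p14, at chr11:102780579-102780878 for MMP10 and chr11:102724905-102725204 for MMP8. Capitals mark matches to AP-1 (TGANTCA) or the TATA box (TATAAA).
MMP10: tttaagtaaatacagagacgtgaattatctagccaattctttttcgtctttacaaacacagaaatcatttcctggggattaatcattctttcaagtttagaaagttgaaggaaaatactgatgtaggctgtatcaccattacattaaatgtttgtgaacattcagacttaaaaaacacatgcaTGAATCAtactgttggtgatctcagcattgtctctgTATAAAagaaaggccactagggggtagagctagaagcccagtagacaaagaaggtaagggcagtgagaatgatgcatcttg
MMP8: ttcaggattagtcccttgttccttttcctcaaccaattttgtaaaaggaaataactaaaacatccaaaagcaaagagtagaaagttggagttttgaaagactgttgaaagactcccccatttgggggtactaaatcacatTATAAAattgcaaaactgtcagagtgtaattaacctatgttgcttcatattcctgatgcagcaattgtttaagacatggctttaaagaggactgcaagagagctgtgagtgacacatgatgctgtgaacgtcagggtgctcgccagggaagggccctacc
The MMP10 window held 1 AP-1 match, first base at -67, and a TATA box match at -31. The MMP8 window held a TATA box match at -110 and no AP-1 match. Both strands were searched, also for RUNX (TGTGGT), ETS (AGGAAG) and CRE (TGACGTCA) motifs, which had no match in either window. Of 35116 promoter windows of this length, 7.71% held the AP-1 motif, 11.5% the TATA box, 13.1% the RUNX motif, 33.6% the ETS motif and 1.85% the CRE motif. The annotated start of MMP8 in GENCODE lies upstream of this window. A match here describes letters and not binding.

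MMP19 and MMP25 are the other MMP genes. MMP19 encodes a secreted enzyme of basement membrane and other matrix components and stood at 3.53, 2.96 and 3.75 CPM in RUNX1-IT1 ASO libraries 1 to 3, against 10.8, 9.55 and 11.5 CPM in control ASO libraries 1 to 3. Replicate 2 was the lowest library in each group. MMP19 fell by 1.40 ± 0.12 on the log2 scale (SE; limma, adjusted p = 1.2e-07). MMP25 encodes a membrane-type enzyme held by a lipid anchor and known mainly from leukocytes. It stood at 6.47, 5.11 and 5.51 CPM in RUNX1-IT1 ASO libraries 1 to 3, against 13.1, 14.7 and 13.1 CPM in control ASO libraries 1 to 3, so the lowest control library was 2.02-fold above the highest knockdown library. MMP25 fell by 1.13 ± 0.11 (SE; limma, adjusted p = 5.5e-07), close to the median of all tested genes, -1.11, on this scale. By fold of CPM, which has no added constant, 22.3% of the named entries had a smaller fold than MMP25.

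MMP19 lies on chromosome 12 from 55835433 to 55842966 on the reverse strand, and MMP25 on chromosome 16 from 3046681 to 3060726 on the forward strand. Exons of TMEM198B on the opposite strand cover 17.4% of the MMP19 exon bases, and exons of the antisense gene MMP25-AS1 cover 35.2% of the MMP25 exon bases. The strand setting of the counting is not given in the sources used here, so reads of each overlapping pair cannot be told apart in the shared stretches. TMEM198B and MMP25-AS1 are not in the tables used here.

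ADAMTS4 encodes aggrecanase-1, a secreted protease of aggrecan, versican and brevican. It stood at 6.20, 5.27 and 5.62 CPM in RUNX1-IT1 ASO libraries 1 to 3, against 13.1, 12.6 and 13.6 CPM in control ASO libraries 1 to 3. This was the tightest of the 6 genes, with a coefficient of variation of 8.27% under the RUNX1-IT1 ASO and 3.85% under the control ASO. ADAMTS4 fell by 1.07 ± 0.10 (SE; limma, adjusted p = 4.2e-07). ADAM32 stood at 2.46, 1.45 and 1.46 CPM in RUNX1-IT1 ASO libraries 1 to 3, against 4.34, 4.23 and 4.76 CPM in control ASO libraries 1 to 3. RUNX1-IT1 ASO replicate 1 stood above the other two, with 46 reads against 27 and 25. ADAM32 fell by 0.98 ± 0.15 (SE; limma, adjusted p = 2.9e-05), and without that library by 1.15. ADAMTS4 lies on chromosome 1 from 161184308 to 161199056 on the reverse strand and ADAM32 on chromosome 8 from 39106990 to 39284911 on the forward strand.

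All 5 genes that entered the test were called lower, but 97.5% of the 489 genes tested were (2.04% were called higher), so this count sets the family apart in no way. The median change of the 5 was -1.13 and that of all tested genes -1.11, on the log2(CPM + 1) scale, which understates changes of low genes. By fold of CPM, MMP10 lay above the median of 3.24 over all named entries and the other 4 below it. For MMP19 the side is not settled, as its counting interval of 2.66-fold to 3.72-fold includes this median. That median includes 282 entries left out of the test for their low level. Among the 489 tested genes alone, MMP10 had the 42nd and MMP19 the 219th largest fold, both above the middle of that order. ADAM32, MMP25 and ADAMTS4 ranked 326th, 351st and 385th, below the middle. When libraries were rescaled to equal totals over the listed entries, which lie 2.83-fold lower in the RUNX1-IT1 ASO group, only MMP10 remained lower, by 0.93 on the log2 scale (limma, adjusted p = 0.0015). MMP19 then stood at -0.12 (limma, adjusted p = 0.45), ADAM32 at 0.12 (limma, adjusted p = 0.63), MMP25 at 0.22 (limma, adjusted p = 0.22) and ADAMTS4 at 0.27 (limma, adjusted p = 0.068), all 4 without a call and the last 3 with the sign turned. Of all tested genes, 24.1% were called lower and 8.79% higher after this rescaling, and their median change moved to -0.06. It centres a set in which nearly every gene fell, so a positive value there means that the gene lost less than the listed entries did in sum.

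**Figure D3:**
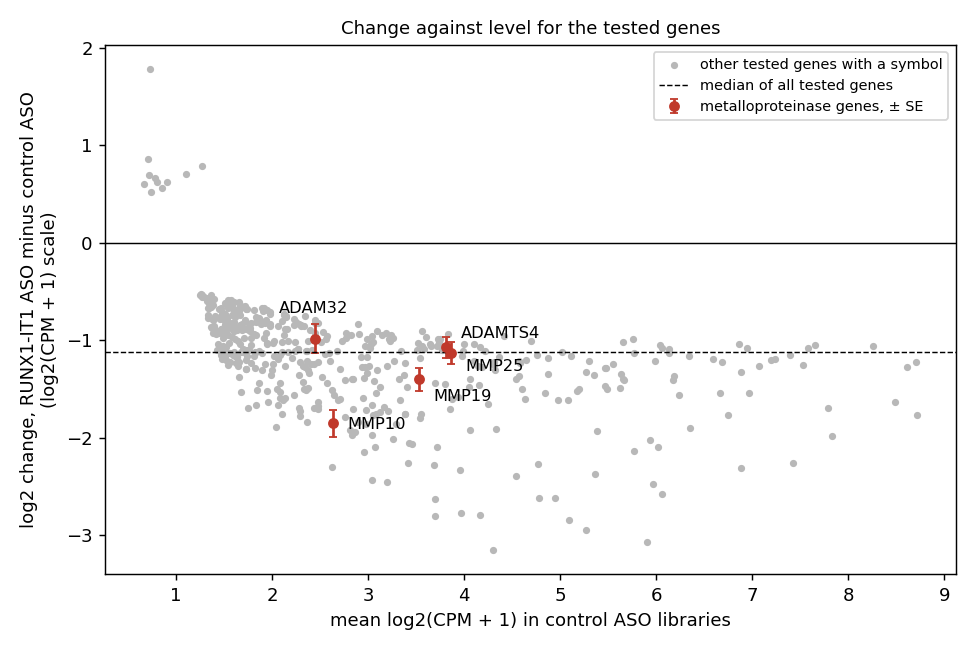
Change on the log2(CPM + 1) scale (y axis, RUNX1-IT1 ASO minus control ASO) against the mean log2(CPM + 1) of control ASO libraries (x axis). Grey points are the other tested genes, red points the 5 tested metalloproteinase genes with limma standard errors, and the dashed line is the median of all tested genes at -1.11. On this scale MMP10 at -1.85 and MMP19 at -1.40 lie below the dashed line, and MMP25 at -1.13, ADAMTS4 at -1.07 and ADAM32 at -0.98 lie near it. By fold of CPM, MMP19 was 3.11-fold lower, with a counting interval of 2.66-fold to 3.72-fold. That fold is slightly less than the median of 3.24 over all named entries, which the interval includes. Those entries include 282 that were not tested, and among the 489 tested genes its fold was the 219th largest, above the middle.

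Ratios of genes within a library do not depend on how that library was scaled, provided that no constant is added. The ratio of MMP10 to MMP25 was 0.0992, 0.200 and 0.0957 in RUNX1-IT1 ASO libraries 1 to 3, against 0.359, 0.382 and 0.408 in control ASO libraries 1 to 3. MMP10 was thus 3.09-fold lower relative to MMP25, and by the same measure 3.22-fold relative to ADAMTS4, 2.90-fold relative to ADAM32 and 2.38-fold relative to MMP19. In all 4 of these ratios every RUNX1-IT1 ASO library lay below every control ASO library. In each pair the gene with the larger fold fall in these same libraries was put on top, so the direction of a ratio is no separate evidence. The 4 ratios also share the MMP10 values and are not independent of each other. The exact two-sided permutation test gave p = 0.1 for each, the smallest that 3 against 3 libraries allow, or 0.2 adjusted over the 10 pairs, so none could pass a threshold of 0.05. With 1 CPM added to each value, the planned form, the MMP10 to MMP19 ratio overlapped between the groups (exact permutation p = 0.3). The form without the constant was chosen after the values were seen.

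MMP25 and ADAMTS4 ran almost level. Their ratio was 1.04, 0.969 and 0.979 in RUNX1-IT1 ASO libraries 1 to 3, against 1.00, 1.17 and 0.962 in control ASO libraries 1 to 3, and both had 262 reads in control ASO replicate 1. The groups overlapped for this ratio (exact permutation p = 0.7), as they did for ADAM32 to MMP25, ADAM32 to ADAMTS4 and MMP19 to MMP25. MMP19 to ADAM32 depended on the constant: in the planned form with 1 CPM added the groups did not overlap (-0.42 on the log2 scale, exact permutation p = 0.1), and without it they did (-0.29, exact permutation p = 0.4). MMP19 was 1.36-fold lower relative to ADAMTS4, with no overlap between the groups and the same smallest exact permutation p of 0.1.

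**Figure D4:**
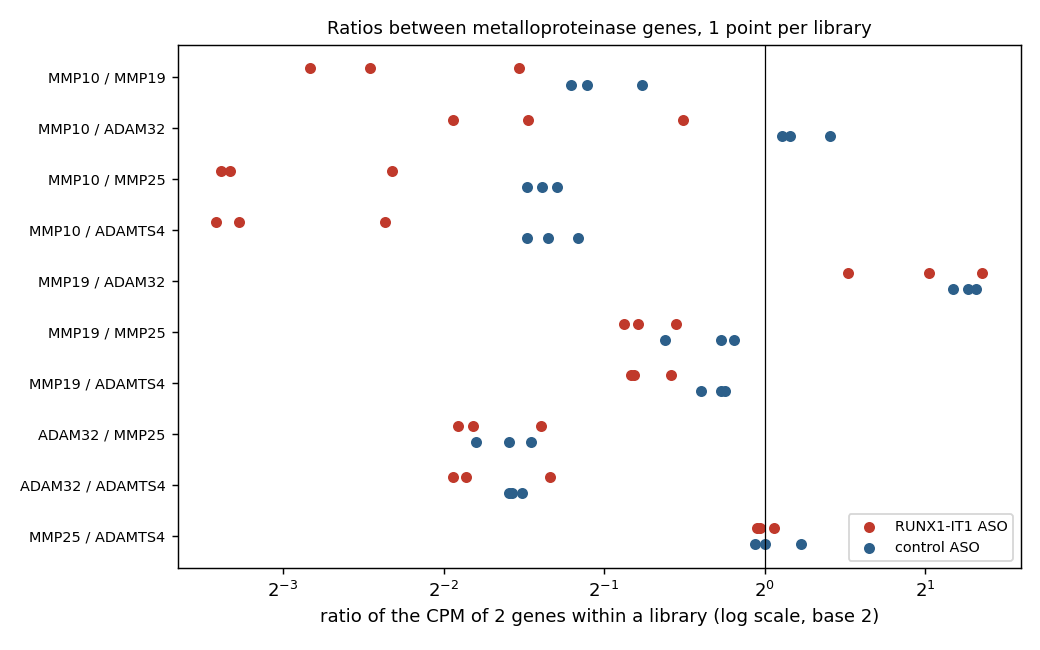
Ratio of the CPM of 2 genes within a library (x axis, log scale), with 1 point per library in red for the RUNX1-IT1 ASO and blue for the control ASO, for all 10 pairs of the 5 tested genes. The red points lie to the left of all blue points in the 4 ratios with MMP10 on top and in MMP19 / ADAMTS4, and the groups overlap in the other 5.

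Per kilobase of the principal GENCODE transcript, the order of levels differed between the groups. Under the RUNX1-IT1 ASO, MMP25 stood at 1.60 ± 0.197 and MMP19 at 1.53 ± 0.183 CPM per kb, followed by ADAM32 at 0.689 ± 0.222, ADAMTS4 at 0.583 ± 0.0482, MMP10 at 0.415 ± 0.147 and MMP8 at 0.0612 ± 0.0312 CPM per kb (SD, n = 3). MMP25 and MMP19 overlapped there, as did ADAM32 with ADAMTS4 and ADAMTS4 with MMP10. Under the control ASO the order was MMP19 at 4.76 ± 0.433, MMP25 at 3.83 ± 0.269, MMP10 at 2.96 ± 0.272, ADAM32 at 1.71 ± 0.108, ADAMTS4 at 1.34 ± 0.0515 and MMP8 at 0.314 ± 0.108 CPM per kb (SD, n = 3), and no neighbours in that order overlapped. MMP10 averaged less than ADAM32 and ADAMTS4 under the RUNX1-IT1 ASO, with libraries that overlapped those of both, and stood above both with no overlap under the control ASO. In RUNX1-IT1 ASO replicate 2, MMP10 at 0.581 CPM per kb stood above ADAM32 at 0.558 CPM per kb. Which transcripts ES2 cells use was not measured, so these levels rest on the annotated lengths.

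Lists of related genes were set beside the family. Of 24 MMP genes 4 were in the tables, of 21 ADAM genes 1 and of 25 ADAMTS and ADAMTS-like genes 1, all members described above. None of 16 other matrix zinc metalloproteases, 14 metalloprotease inhibitors such as the TIMPs, or 32 genes of plasminogen and proprotein convertase activation was in them, and nothing can be said here on their expression. The counts for the lists that follow stand against 97.5% of all tested genes called lower as deposited, and 24.1% lower and 8.79% higher after rescaling to equal listed totals, so nothing particular to a list is read from them. Medians of these lists are on the log2(CPM + 1) scale, which shrinks the changes of low genes. Their distance from the median of all tested genes thus depends partly on level. Among 73 matrix substrates 7 were in the tables and 5 tested, of which 4 fell and 1 rose, with a median of -1.19. THBS1, the matrix protein thrombospondin, RELN, the secreted protein reelin, LAMA2, a laminin chain, and BCAN, the ADAMTS4 substrate brevican, fell, whereas FBLN7, a fibulin named after its values were seen, rose. BCAN stood at 0.662 ± 0.0839 CPM under the RUNX1-IT1 ASO and 1.96 ± 0.122 CPM under the control ASO (SD, n = 3 each). After rescaling to equal listed totals 1 of the 5 was called lower (RELN) and 2 higher (THBS1 and FBLN7).

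Of 34 ligands that induce MMP genes in various cells, 8 were in the tables, and the 7 that were tested were all called lower (median -1.22), as were 97.5% of all tested genes (median -1.11). IL6, an inflammatory cytokine, stood at 1.10 ± 0.253 CPM under the RUNX1-IT1 ASO and 6.47 ± 0.589 CPM under the control ASO, 5.89-fold lower. EREG, a ligand of the epidermal growth factor receptor, stood at 43.5 ± 5.59 CPM under the RUNX1-IT1 ASO and 102 ± 4.67 CPM under the control ASO, 2.34-fold lower. IL11 and CSF2, also cytokines, were 2.06-fold and 3.46-fold lower. IL6 and CSF2 thus lay above the median fold of CPM over all named entries, 3.24, and EREG and IL11 below it. After rescaling, 2 of the 7 were called lower and 1 higher (IL11, at 0.44), against 24.1% and 8.79% of all tested genes. Of 34 receptors of these ligands only IL6R was listed, and it fell 3.30-fold.

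The AP-1 and ETS list had 6 of 38 genes in the tables, each of them called lower (median -2.40), beside 97.5% of all tested genes (median -1.11). FOS, an AP-1 subunit, stood at 6.98 ± 0.974 CPM under the RUNX1-IT1 ASO and 40.1 ± 3.83 CPM under the control ASO (SD, n = 3 each). The AP-1 subunit FOSB was 6.43-fold lower and the related factor ATF3 9.54-fold lower. JUNB, an AP-1 subunit of the JUN family named after its values were seen, was 2.94-fold lower, under the median fold of 3.24 over all named entries. When rescaled to equal listed totals JUNB stood at -0.057 (limma, adjusted p = 0.58). After rescaling 4 of the 6 were called lower and 1 higher (ETS2, an ETS factor, at 0.45), against 24.1% and 8.79% of all tested genes. Of 36 other regulators of MMP genes 5 were listed and called lower (median -1.62), again beside 97.5% of all tested genes, among them SNAI1, which represses E-cadherin, EGR1, an immediate early factor, DUSP10, a phosphatase of MAP kinases, and NFKBIA, an inhibitor of NF-kB. After rescaling 2 of these 5 were called lower, against 24.1% of all tested genes.

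MMP8 and MMP25 are known from leukocytes, so leukocyte markers were read beside them. Of 16 neutrophil markers only ITGAM was in the tables, at 0.0590 to 0.214 CPM in RUNX1-IT1 ASO libraries and 1.62 to 1.84 CPM in control ASO libraries. Of 10 macrophage and lymphocyte markers only CD163 was in them, at 1.39 to 1.82 CPM under the RUNX1-IT1 ASO and 9.43 to 10.2 CPM under the control ASO. None of 9 fibroblast and 9 testis germ cell markers was listed. ITGAM lay near the floor of 3 reads under the RUNX1-IT1 ASO and was under the minimum level for the test. ITGAM and CD163 were lower under the RUNX1-IT1 ASO, as were MMP8 and MMP25, but so were 751 of the 771 named entries by mean. The part of ITGAM and CD163 in the MMP8 and MMP25 results was not tested.

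The tested genes whose profiles over the 6 libraries were most like each member were found by the root mean square difference of centred log2(CPM + 1). For MMP10 these were CFLAR-AS1 at 0.12 and CPA5 at 0.14, where the median over tested genes was 0.42. CFLAR-AS1 stood at 0.267, 0.538 and 0.176 CPM in RUNX1-IT1 ASO libraries 1 to 3 and at 2.89, 3.82 and 2.88 CPM in control ASO libraries 1 to 3, with replicate 2 highest in each group as for MMP10. CFLAR-AS1 was picked for its likeness over these same libraries, so the shared order is no separate evidence. Its 0.176 CPM in RUNX1-IT1 ASO replicate 3 lies at the floor of 3 reads. EFNB2 and LINC01024 were nearest to MMP19, at 0.047 and 0.051, and ARRDC3 at 0.053 and ZNF773 at 0.055 to MMP25. LINC02154 and OTOGL were nearest to ADAMTS4 at 0.045 and 0.047, and GP5 and SP9 to ADAM32, both at 0.061. The added constant shrinks the change of low genes, so genes near on this scale can differ in fold: LINC02154 was 5.41-fold and OTOGL 4.20-fold lower beside 2.29-fold for ADAMTS4, and GP5 was 2.87-fold and SP9 3.84-fold lower beside 2.48-fold for ADAM32. Likewise CFLAR-AS1 was 9.77-fold and CPA5 4.90-fold lower beside 7.13-fold for MMP10. Between members, MMP25 and ADAMTS4 were closest at 0.090, and MMP10 and ADAM32 farthest apart at 0.50. All these genes share the same 6 libraries and the group difference by which entries are listed.

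Around the members, 10 other listed genes started within 500 kb, and all 10 averaged less under the RUNX1-IT1 ASO, as did 751 of the 771 named entries. MMP25 had 6 of them. CLDN6, a tight junction claudin, stood at 2.10 ± 0.155 CPM under the RUNX1-IT1 ASO and 14.5 ± 1.28 CPM under the control ASO, 6.94-fold lower, and IL32, a cytokine, was 4.49-fold lower (SD, n = 3 each), beside 2.39-fold for MMP25, which lies between them. CLDN9, BICDL2, ZG16B and ZSCAN10 lay under the minimum level for the test. Near MMP19, ITGA7, an integrin chain, was 3.19-fold lower and IL23A, a cytokine subunit, 5.53-fold lower, and near ADAMTS4 the heat shock gene HSPA6 was untested. ADAM32 had no listed neighbour. Of the 10, 5 were tested, and all 5 were called lower, as were 97.5% of all tested genes.

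**Figure D5:**
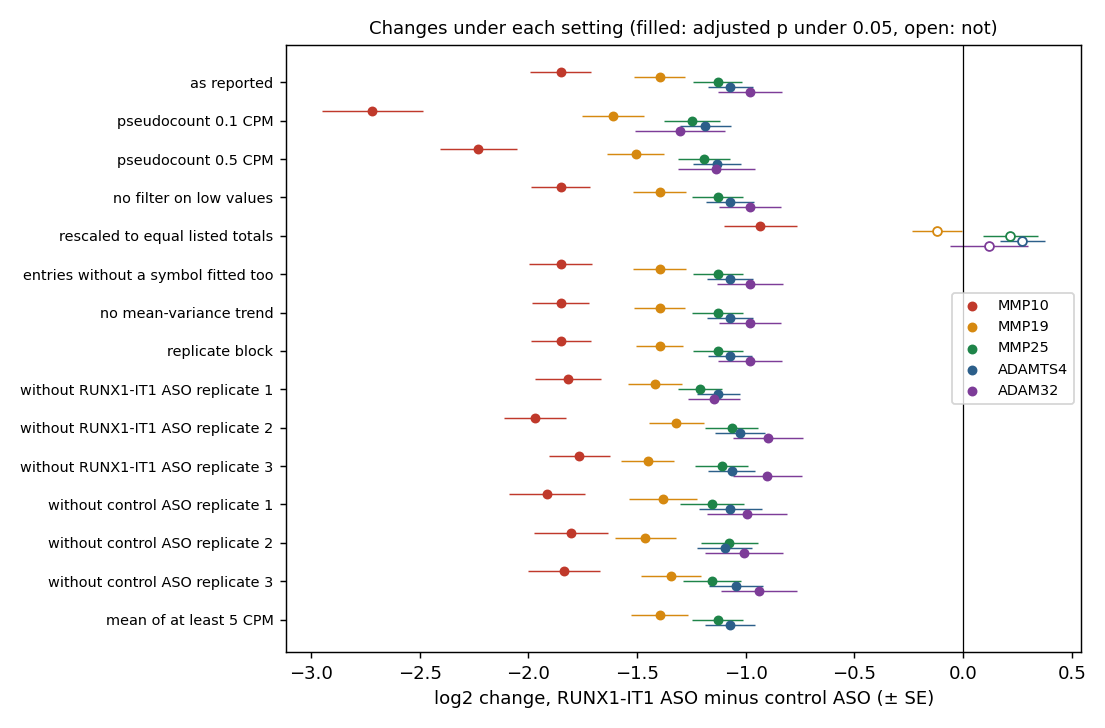
Change of the 5 tested genes (x axis, log2 scale, RUNX1-IT1 ASO minus control ASO, with limma standard errors) under each setting (rows), filled where the adjusted p was under 0.05. Rescaling to equal listed totals is the setting with open points, for MMP19, MMP25, ADAMTS4 and ADAM32, and MMP10 is the lowest point in each row that holds it.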

How the data were processed

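Per the labels' protocols, mRNA-focused libraries were made from total RNA of ES2 cells. Per the submitters' processing notes, FastQC 0.11.9, fastp 0.22.0 and GRCh38 were used. The authors deposited CPM, a unit read from the values. Aligner, counter, annotation and strand setting are not given in the sources used here. Within each library low values were whole multiples of 1 step within 0.1 step, up to 320 steps. The smallest non-zero value in the control ASO libraries was above 1 step, so reads are implied values and no count test was run. Intervals and the floor of 3 reads (0.160 to 0.176 CPM for the RUNX1-IT1 ASO, 0.141 to 0.174 CPM for the control ASO) cover counting error only.

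In R 4.3.3, limma 3.58.1 with a mean-variance trend was fitted to log2(CPM + 1), with group as the only term. The fit covered 489 named genes averaging 1 CPM or more over the 6 libraries. The same fit was tried on simulated data in which most genes did not change. Every entry here was listed with a difference, so that trial does not vouch for the p-values. Benjamini-Hochberg adjusted p under 0.05 was called. The design named both a count test and the limma test, and the unit decided. The 342 entries without a symbol were left out of the main fit. Pairs of genes were compared by exact permutation in scipy 1.17.1. Replicates of a group differed by more than counting noise (chi-square per degree of freedom 1.70 to 2.75). Genes named are the 6 members, listed genes of the protease lists, up to 4 with the smallest adjusted p of other lists, the 2 nearest profiles per tested member and listed genes within 500 kb. Beside this rule, FBLN7, ETS2 and JUNB were named too. A gene that this rule names is not reported here. The members and lists were chosen with earlier results of these data known. Promoters are from RefSeq (GRCh38.p14) and positions from GENCODE 29. Alternatives tried were other pseudocounts, filters and scaling, the unnamed entries, no trend, a replicate block and each library left out.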

Additional observations from a re-analysis of the deposited data

How the results depend on the processing

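Across pseudocounts of 0.1 and 0.5 CPM, no filter, unnamed entries fitted too, no trend, a replicate block and each library left out, MMP10 (-2.72 to -1.77), MMP19 (-1.61 to -1.32), MMP25 (-1.25 to -1.06), ADAMTS4 (-1.19 to -1.03) and ADAM32 (-1.30 to -0.90) stayed called lower by limma. A minimum of 5 CPM leaves out MMP10 and ADAM32 and kept the calls of the other 3. Rescaling to equal listed totals moved MMP19 to -0.12, MMP25 to 0.22, ADAMTS4 to 0.27 and ADAM32 to 0.12, none called. MMP8, tested only without the filter, stood at -0.71 (limma, adjusted p = 0.00046).

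Of the 489 genes tested, 477 were lower and 10 higher. With no filter, 750 of 771 were lower and 19 higher. At 5 CPM or more only 165 genes were tested, and all 165 were lower (limma, 0 higher at an unadjusted p under 0.05). The counts were 118 lower and 43 higher after rescaling, and 649 lower and 20 higher with unnamed entries fitted too. Leaving out 1 library gave 477 to 478 lower and 10 to 11 higher. Same-numbered libraries of the groups did not deviate together from their group means (correlations -0.24, -0.10 and -0.02). With 3 libraries per group the deviations are tied to each other, so this check cannot decide whether same-numbered libraries shared a culture or batch. A replicate block gave 478 lower and 10 higher.

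Between members, ADAM32 relative to MMP25 stood at 0.15 as planned, at -0.056 with a pseudocount of 0.1 CPM and at -0.092 with none. ADAM32 relative to ADAMTS4 stood at 0.09 as planned, and at -0.12, -0.0032 and -0.15 with 0.1 CPM, 0.5 CPM and none, and ranged from -0.020 (without RUNX1-IT1 ASO replicate 1) to 0.16 with 1 library left out. MMP25 relative to ADAMTS4 ranged from -0.11 to 0.023 (without control ASO replicate 2) with 1 library left out. The form with no pseudocount was chosen after seeing the data. The cause was not tested. Depth limits MMP8 most.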
